A study of Mus musculus with 8 samples.

Results

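Delta cells and PP cells are minor endocrine cell types of the pancreatic islet, and 6 of their marker genes were followed here. They are Sst, Hhex, Rbp4 and Ghsr of delta cells and Ppy and Pyy of PP cells. Each gene has 1 probe on the array, found by its gene name among the non-control spots, so the set is 6 of 39429 probes, or 6 of 30028 gene names. All 6 were well above background on every array. The samples are labelled as pancreatic beta cells of C57BL/6 mice, and the labels count 4 biological replicates on a high-fat diet and 4 on a control diet, which they also call chow. Whether a sample is 1 mouse or a pool, the ages of the animals, the length of feeding and the way the cells were isolated are not given in the sources used here. No allele or agent other than the diet is named for either group. Each sample was hybridised to its own 1-colour Agilent mouse array.

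Somatostatin from delta cells acts on neighbouring beta and alpha cells through inhibitory G protein-coupled receptors and lowers the release of insulin and glucagon. Delta cells themselves respond to ghrelin and to urocortin 3, which beta cells release together with insulin. Pancreatic polypeptide and peptide YY belong to the neuropeptide Y family, whose members share a fold and a set of Y receptors, and in the islet both are made mainly by PP cells. In mouse, some PYY is also found in other islet cells.

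The 8 arrays held 43020 non-control spots each, and 63.6% to 68.6% of these passed the scanner software's test for signal well above background. Saturation was recorded for 0 spots. The arrays lay on 2 slides with 2 arrays of each diet on each slide. High-fat samples occupied positions 2 and 4 and control samples positions 1 and 3 on both slides, so the effect of position cannot be told apart from that of diet. All 11 beta cell markers examined were well above background on all 8 arrays, as were the acinar enzymes and the alpha cell hormone glucagon, so transcripts typical of other pancreatic cells were measured in samples labelled as beta cells. Levels below are log2 signals relative to the 75th percentile of the same array, and they compare arrays for 1 probe, not probes with each other. In RNA of a mixed sample, fewer cells of a type and less RNA per cell cannot be told apart.

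The Ppy and Pyy probes are shown because these genes are relatives that lie next to each other on chromosome 11, with 0 protein-coding genes between them in RefSeq (GRCm38.p6), so the likeness of their probes bears on how far the signals are separate. The capitals mark the identical bases, 13 of 17, where the end of one probe and the start of the other match best without gaps over at least 15 bases. The sequences are those of the scanner files, 5′ to 3′.
Ppy: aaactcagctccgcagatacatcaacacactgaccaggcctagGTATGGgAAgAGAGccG
Pyy: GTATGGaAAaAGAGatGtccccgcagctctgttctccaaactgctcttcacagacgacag
The longest run of bases that the probes share was 6 of 60. The Ppy probe maps to chr11:101961581-101961877 of mm9, on the minus strand, and since 60 bases span 297 bases of genome it crosses a splice junction. The Pyy probe maps to chr11:101968311-101968370, minus strand. Of the delta cell genes, the Sst probe lies at chr16:23889776-23889835 (minus strand), the Hhex probe at chr19:37514969-37515028 (plus), the Rbp4 probe at chr19:38191120-38191179 (minus) and the Ghsr probe at chr3:27276818-27276877 (plus), all on mm9. Exon and UTR boundaries of that build were not used here.

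The 4 delta cell genes had lower mean levels in the high-fat samples, and the PP cell genes overlapped between the diets. For Sst, Hhex and Rbp4 the highest high-fat sample was still below the lowest control sample. The fitted differences corresponded to 1.31-fold lower signal for Sst, 1.52-fold for Hhex, 1.36-fold for Rbp4 and 2.02-fold for Ghsr. None of them passed the test over all probes: limma called 0 of 26076 probes at an adjusted p under 0.05 (0%). At an unadjusted p under 0.05, 901 probes (3.46%) were lower and 607 (2.33%) higher. Against that background, 4 of the 6 members were lower at an unadjusted p under 0.05 and 0 were higher. All 4 high-fat arrays lay below all 4 control arrays for 458 probes (1.76%), and for 3 of the 6 members. The members were chosen with earlier results of these arrays known, so these counts are a description of the set.

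**Figure D1:**
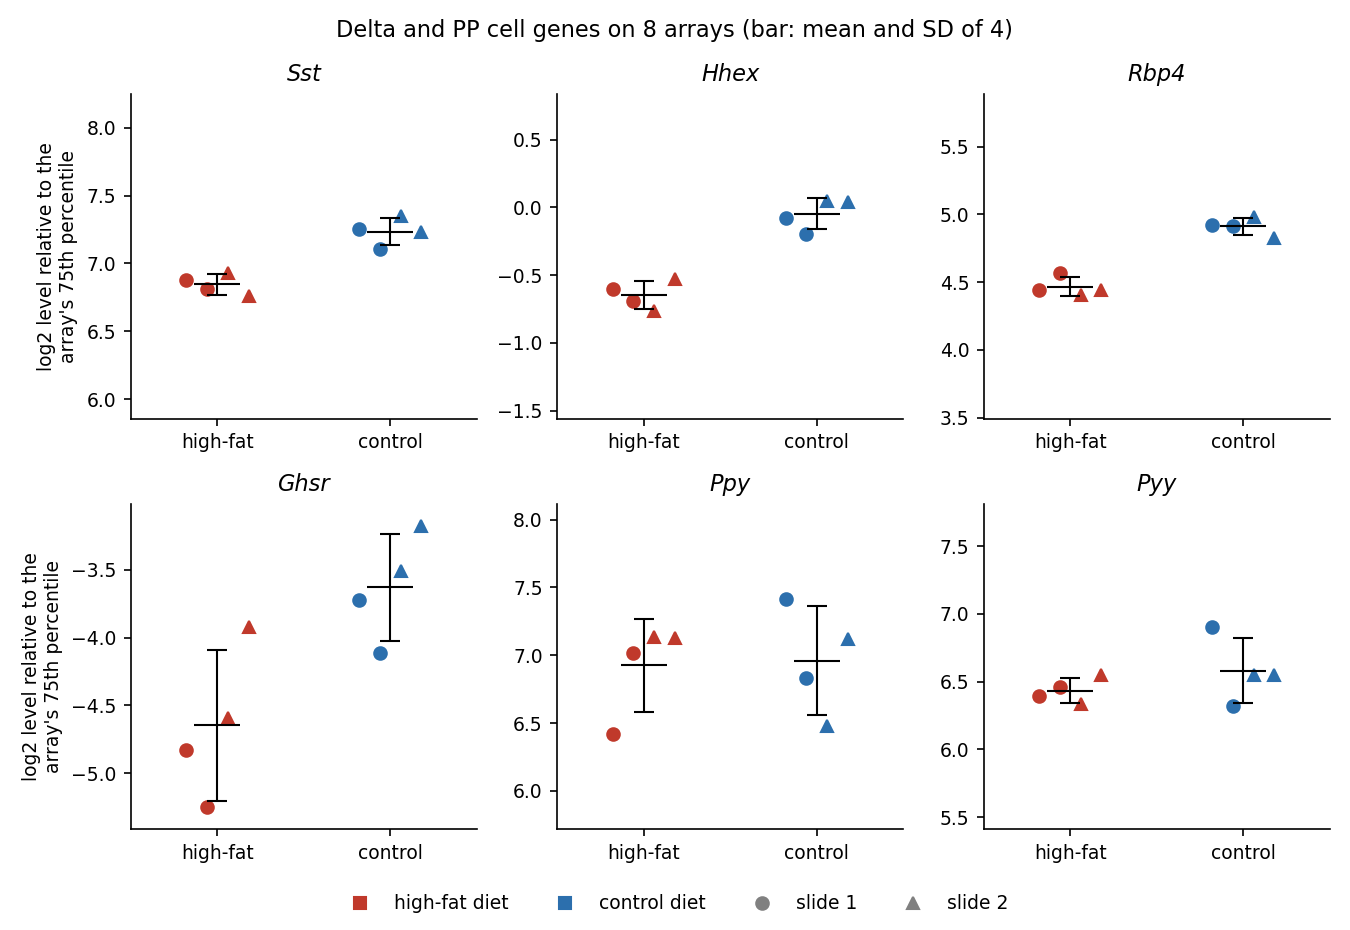
Level of each of the 6 genes on the 8 arrays, as log2 signal relative to the 75th percentile of the array, with high-fat samples on the left, control samples on the right, slides by marker shape, and mean and SD of 4 samples as bars; all panels span the same number of log2 units. The high-fat points lie below all control points for Sst, Hhex and Rbp4, and overlap with them for Ghsr, Ppy and Pyy.

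Sst encodes the somatostatin prohormone. Its level was 6.88, 6.81, 6.93 and 6.76 in high-fat replicates 1 to 4, against 7.25, 7.11, 7.35 and 7.23 in control replicates 1 to 4. The groups did not overlap, with a gap of 0.17 between the highest high-fat and the lowest control sample. The mean was 6.84 ± 0.076 in high-fat and 7.23 ± 0.099 in control samples (SD, n = 4 each), a log2 difference of -0.39 ± 0.10 (SE, limma adjusted p = 0.586). Within slides, it was -0.33 for slide 1 and -0.44 for slide 2.

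The Sst probe is printed 10 times on the array, which gives the technical spread that the single spots of the other members lack. Between 8 and 10 spots per array remained after spots marked as outliers were left out. Their SD within an array ranged from 0.075 to 0.11 in high-fat samples and from 0.064 to 0.094 in control samples. These are SDs of single spots, and a mean over 8 to 10 spots varies less. They are therefore not comparable with the SD of the sample means within a diet. Single spots of the diets did overlap: the highest high-fat spot stood at 7.11 and the lowest control spot at 6.99. The separation of the diets is therefore one of array means over the replicate spots.

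**Figure D2:**
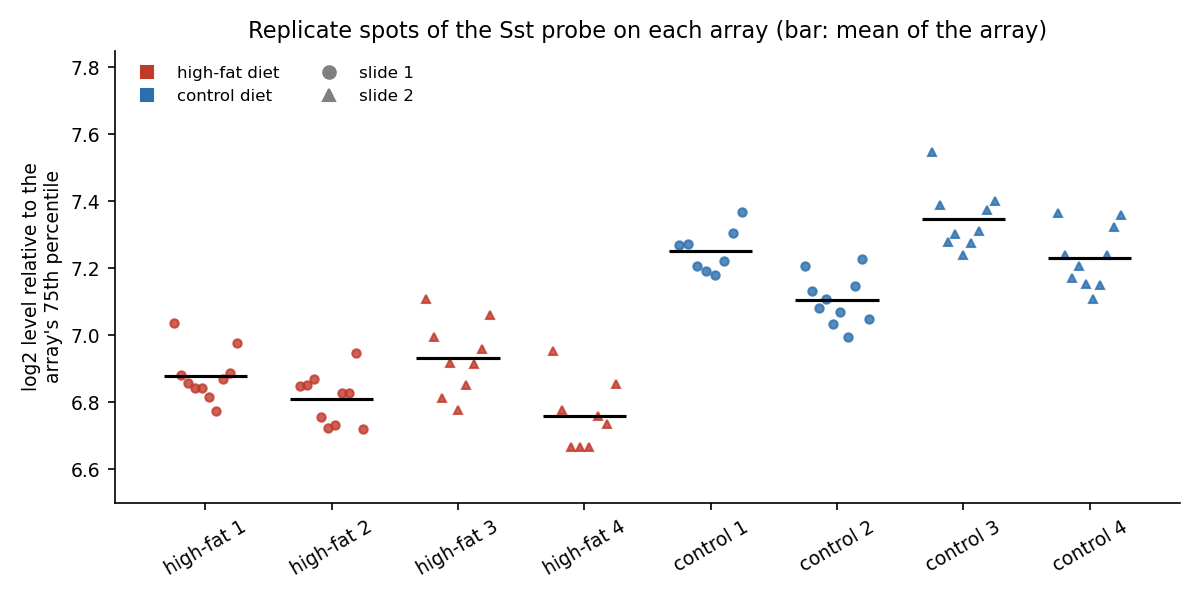
The replicate spots of the Sst probe on each array, as log2 level relative to the 75th percentile of the array, with high-fat samples on the left and the mean of each array as a bar. The array means of high-fat samples lie between 6.76 and 6.93 and those of control samples between 7.11 and 7.35. Single spots of high-fat replicates 1 and 3 reach the range of control replicate 2.

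Hhex encodes a homeobox transcription factor that in the mouse islet is found in delta cells and is needed for their differentiation. It stood at -0.60, -0.69, -0.77 and -0.53 in high-fat replicates 1 to 4, against -0.076, -0.20, 0.047 and 0.039 in control replicates 1 to 4. Its gap of 0.33 between the diets was the widest among the members. The means were -0.65 ± 0.10 in high-fat and -0.046 ± 0.11 in control samples (SD, n = 4 each), with a log2 difference of -0.60 ± 0.11 (SE, limma adjusted p = 0.338). By unadjusted p it ranked 34 among the 26076 probes, the first of the members. The differences within slides were -0.51 for slide 1 and -0.69 for slide 2.

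Rbp4 encodes the plasma carrier of retinol, best known as a product of liver and fat. Its level was 4.45, 4.57, 4.41 and 4.44 in high-fat replicates 1 to 4, against 4.92, 4.92, 4.98 and 4.83 in control replicates 1 to 4. The groups were tight and 0.26 apart at their nearest samples. The means were 4.47 ± 0.070 in high-fat and 4.91 ± 0.062 in control samples (SD, n = 4 each), a log2 difference of -0.45 ± 0.094 (SE, limma adjusted p = 0.427), with -0.41 on slide 1 and -0.48 on slide 2.

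Ghsr, the ghrelin receptor, through which ghrelin stimulates somatostatin release, had the widest difference of the set and a signal near its local background. It stood at -4.83, -5.25, -4.59 and -3.92 in high-fat replicates 1 to 4, against -3.72, -4.11, -3.51 and -3.18 in control replicates 1 to 4. The samples overlapped by 0.19, since high-fat replicate 4 lay above control replicate 2. The log2 difference was -1.02 ± 0.30 (SE, limma adjusted p = 0.721), with -1.12 on slide 1 and -0.91 on slide 2. Its spot gave a raw mean signal of 49.0 to 63.3 intensity units in high-fat and 65.6 to 96.5 in control samples, beside a local background of 29.0 to 39.0 and 27.0 to 35.0. The size of the difference depended on how background was subtracted. It turned to 0.42 with normexp background correction, and was -0.26 with normexp without spots of outlying background and -0.10 in the authors' deposited value table.

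Ppy encodes pancreatic polypeptide, the hormone that defines PP cells. Its level was 6.42, 7.01, 7.14 and 7.13 in high-fat replicates 1 to 4, against 7.41, 6.83, 6.48 and 7.12 in control replicates 1 to 4. The lowest and the highest sample were high-fat replicate 1 and control replicate 1, and the diets overlapped. The means were 6.92 ± 0.34 in high-fat and 6.96 ± 0.40 in control samples (SD, n = 4 each). The log2 difference was -0.037 ± 0.24 (SE, limma adjusted p = 0.987), with -0.41 on slide 1 and 0.33 on slide 2. The difference between the slides, 0.74, did not pass a test of the interaction of diet and slide (limma adjusted p = 0.805). The sign turned without high-fat replicate 1 (0.13), without control replicate 1 (0.11) or 4 (0.016), and with scaling to the median (0.040).

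Pyy encodes peptide YY, which in the gut is a satiety hormone. It stood at 6.40, 6.46, 6.33 and 6.55 in high-fat replicates 1 to 4, against 6.90, 6.32, 6.55 and 6.55 in control replicates 1 to 4. The diets overlapped, and control replicate 1 was the highest for both Pyy and Ppy. The means were 6.43 ± 0.091 in high-fat and 6.58 ± 0.24 in control samples (SD, n = 4 each), a log2 difference of -0.15 ± 0.14 (SE, limma adjusted p = 0.928). Without control replicate 1 it was -0.038, and without control replicate 2 it was -0.23.

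To ask whether Sst differed between diets by another amount than the main hormones of other islet cells, the log2 ratio of Sst to Ins2 (insulin of beta cells), Gcg (glucagon of alpha cells) and Ppy was taken within each array, which removes any scaling factor of the array. The ratio of Sst to Ins2 was -1.35 ± 0.26 in high-fat and -0.92 ± 0.24 in control samples (SD, n = 4 each), a difference of -0.43. Its two-sided exact permutation p was 0.0857, and 0.257 adjusted over the 3 ratios, and with 4 samples per diet no p below 0.0286 can be reached. After adjustment, a single ratio at that smallest p could not pass unless another ratio reached it too. The ratio of Sst to Gcg was -0.91 ± 0.25 in high-fat and -0.69 ± 0.19 in control samples, a difference of -0.22 (exact p = 0.229, adjusted 0.257). The ratio of Sst to Ppy was -0.080 ± 0.37 in high-fat and 0.27 ± 0.44 in control samples, a difference of -0.35 (exact p = 0.257, adjusted 0.257).

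None of the ratios passed, and they depended on the slide. For Ins2 the slide 1 difference was -0.77 and the slide 2 difference -0.098, and for Gcg they were -0.43 and -0.014. For Ppy the direction turned, with 0.072 on slide 1 and -0.78 on slide 2, and leaving out high-fat replicate 1 gave -0.53, while leaving out control replicate 3 gave -0.15. The Gcg difference was -0.12 when high-fat replicate 1 was left out and -0.13 when control replicate 1 was. Ins2 itself stood at 8.42, 8.32, 7.92 and 8.13 in high-fat replicates 1 to 4, against 7.82, 8.05, 8.44 and 8.30 in control replicates 1 to 4. The insulin signal was thus higher in high-fat samples on slide 1 and lower on slide 2, while that of Sst was lower on both. This turn was not particular to Ins2. Every acinar marker examined showed it, such as Amy2a5 with 0.40 on slide 1 and -0.41 on slide 2. Ins1 and Iapp showed it too, the other beta cell markers did not, and the cause was not tested. Without high-fat replicate 3 the ratio differences were -0.56 for Ins2 and -0.33 for Gcg, and both passed (exact p adjusted over the ratios, 0.0429). That was not the only setting to matter: of 15 alternatives, 12 gave the same outcome as reported for Ins2, and 12 for Gcg. The 15 include each slide alone, where 2 samples per diet are too few for any ratio to pass. In all 15, the ratio differences for Ins2 and Gcg lay below 0.

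**Figure D3:**
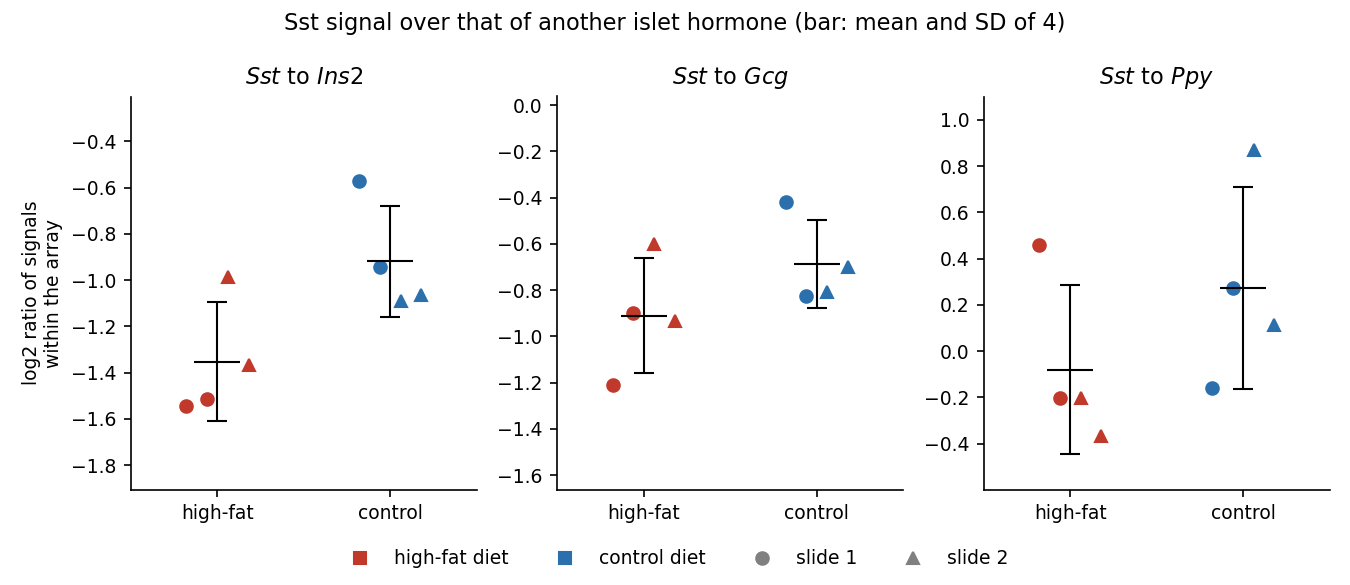
Log2 ratio of the Sst signal to that of Ins2, Gcg and Ppy within each array, with high-fat samples on the left, control samples on the right, slides by marker shape, and mean and SD of 4 samples as bars. The diets overlap in all 3 panels, and for Ins2 and Gcg the slide 1 samples are farther apart than those of slide 2.

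Other genes listed for delta cells went both ways, and the list was not limited to genes specific to these cells. Of 12 that passed the filter on dim probes, 8 lay below 0 and 4 above. At an unadjusted p under 0.05, 2 were lower and 0 higher (3.46% and 2.33% over all probes), and none passed over all probes. Their median difference was -0.055, beside -0.013 over all probes tested. Nts, 1 of the 12, was well above background in only 2 high-fat and 2 control samples. The fatty acid receptor Ffar4, which mouse delta cells express, stood at -3.29, -3.43, -3.45 and -3.72 in high-fat replicates 1 to 4, against -2.21, -2.59, -2.68 and -2.84 in control replicates 1 to 4. These samples did not overlap, with a log2 difference of -0.89 ± 0.16 (SE, limma adjusted p = 0.345). Its raw spot signal was 67.8 to 85.3 intensity units in high-fat and 91.2 to 220.0 in control samples. The Ffar4 difference turned to 0.12 with normexp background correction, and was -0.40 with normexp without spots of outlying background and -0.16 in the authors' deposited value table. The tetraspanin Cd9, which many other cell types express as well, differed by -0.89 ± 0.28 (SE, limma adjusted p = 0.744), with -0.42 on slide 1 and -1.36 on slide 2. The urocortin receptor Crhr2 was at -0.064 ± 0.17 (SE, limma adjusted p = 0.971).

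**Figure D4:**
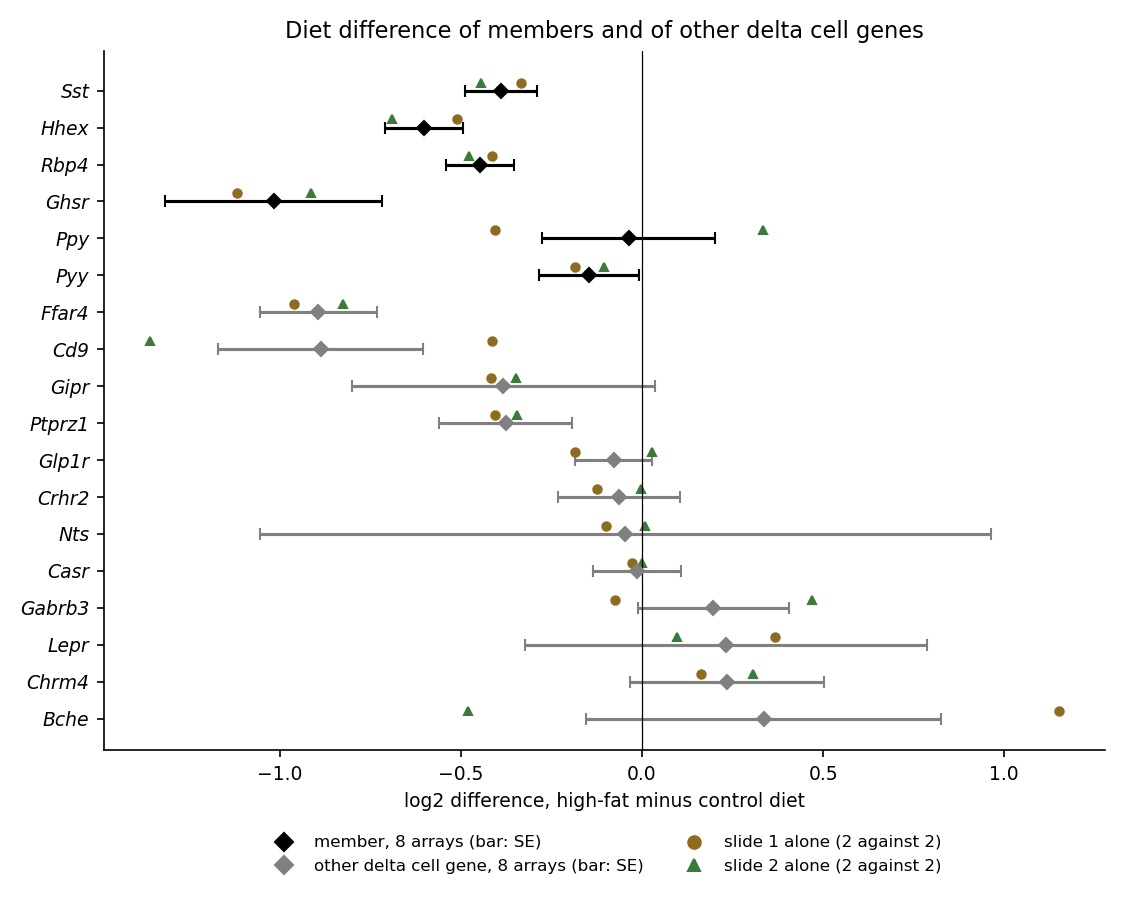
Log2 difference, high-fat minus control diet, of the 6 members (black) and of 12 other genes listed for delta cells (grey), with the SE of the fit as bars and the difference on each slide as small symbols. All members but Ppy lie below 0 on both slides, as do Ffar4, Cd9, Gipr, Ptprz1 and Crhr2 among the grey genes, and Ppy lies on opposite sides of 0.

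The receptors that read the signals of these cells were also looked at. Of 5 genes from the list of somatostatin receptors and the related ligand cortistatin, 1 was lower and 0 were higher by unadjusted p under 0.05. The median difference was 0.0070. The lower one was Sstr1, at -3.67, -4.03, -3.62 and -3.78 in high-fat replicates 1 to 4, against -3.03, -2.88, -3.26 and -2.53 in control replicates 1 to 4. Its groups did not overlap and its log2 difference was -0.85 ± 0.17 (SE, limma adjusted p = 0.410). That of Sstr1 turned to 0.33 with normexp background correction, and was -0.28 with normexp without spots of outlying background and -0.11 in the authors' deposited value table. Sstr3 stood at 0.18 ± 0.12 (adjusted p = 0.921). The probe of Sstr2, known as a main somatostatin receptor of alpha cells, did not pass the filter on dim probes.

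Of the neuropeptide Y family and its receptors 4 genes passed the filter, with a median difference of 0.055. Neuropeptide Y itself (Npy) was the 1 gene at an unadjusted p under 0.05, with -2.10, -0.21, -2.68 and -2.76 in high-fat replicates 1 to 4, against -1.16, 0.27, -1.39 and 1.13 in control replicates 1 to 4. The diets overlapped, and the log2 difference of -1.65 ± 0.72 (SE, limma adjusted p = 0.862) was -0.71 on slide 1 and -2.59 on slide 2. Ghrelin (Ghrl), the ligand of Ghsr, had a log2 difference of 0.68 ± 0.30 (SE, limma adjusted p = 0.869), which was 0.44 without high-fat replicate 1 and 0.41 in the authors' deposited value table. It stood at 0.84, 0.070, -0.17 and -0.30 in high-fat replicates 1 to 4, against 0.083, -0.98, -0.65 and -0.75 in control replicates 1 to 4, with overlap.

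Transcription factors of the endocrine lineages were measured by 11 genes. By unadjusted p under 0.05, 4 of them were lower and 0 higher (3.46% and 2.33% over all probes). The median difference of the 11 was -0.21, beside -0.013 over all probes. The 4 lower genes included the endocrine progenitor factor Neurog3 at -0.73 ± 0.16 (SE, limma adjusted p = 0.431) and Neurod1, a factor of endocrine differentiation, at -0.39 ± 0.16 (SE, limma adjusted p = 0.830). Neurog3 differed by -0.54 on slide 1 and -0.93 on slide 2, and Neurod1 by -0.40 and -0.37.

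Marker lists of other cells were read beside the delta cell genes, and their part in the result was not tested. Of 10 alpha cell markers, 5 were lower and 1 higher at an unadjusted p under 0.05 (3.46% and 2.33% over all probes). The summed alpha marker level, in multiples of the 75th percentile of the array, was 319.0 to 354.5 in high-fat and 284.6 to 385.7 in control samples, which overlap. The lower ones included Irx1 (-1.10 ± 0.21), Irx2 (-0.78 ± 0.23) and Smarca1 (-0.46 ± 0.12), and the higher one was Gc (1.32 ± 0.28), while the hormone Gcg was at -0.17 ± 0.16. All samples on the high-fat diet were below all on the control diet for 4 of the 10 alpha markers and for 4 of the 6 delta markers, a list made of the 4 delta cell members, Ffar4 and Crhr2. Over all probes tested this share was 1.76%, and the lists were chosen with earlier results of these data known. The median difference was -0.46 over the alpha and -0.52 over the delta markers. The alpha sum is carried by its brightest probes, those of Gcg, Ttr and Gc. The sum of the delta markers, 131.6 to 144.5 in high-fat and 169.4 to 196.1 in control samples, likewise restates Sst and Rbp4.

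For 11 beta cell markers the summed level was 952.2 to 1235 in high-fat and 878.2 to 1205 in control samples, with 1 lower and 1 higher at an unadjusted p under 0.05. The 10 acinar markers summed to 2311 to 3972 in high-fat and 1942 to 3752 in control samples, and 0 of them reached an unadjusted p under 0.05. None of the 6 macrophage markers did either, but their summed level did not overlap, at 14.8 to 17.1 in high-fat and 18.5 to 23.1 in control samples. Ductal, endothelial, lymphocyte, stellate and Schwann cell markers had 0 genes at an unadjusted p under 0.05 and overlapping sums. The markers that did not pass the filter on dim probes were Pou3f4 for alpha, Mboat4 for epsilon, Cftr for ductal and Gfap for Schwann cells, and the macrophage marker Adgre1 was not found by that name.

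By Pearson correlation of log2 levels over the 8 arrays, the genes most like Sst among 20711 probes of named genes included Ccdc184 (0.977), Dennd2a (0.973) and Klhl13 (0.972). Dennd2a encodes a guanine nucleotide exchange factor and Klhl13 a ubiquitin ligase adaptor. Those most like Ppy were Tfe3 (0.950), Stag1 (0.947), Trip11 (0.944), Ifit2 (0.926) and Slc41a2 (0.925). The 8 points share the split by diet and by slide, and the best of many probes is high by selection alone, so these values are a description.

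Upstream sequences of the 4 delta cell genes are shown because their levels were lower in the same samples. They are the 120 bases before each RefSeq gene start (GRCm38.p6), 5′ to 3′ on the strand of the gene, and Rbp4 has 2 starts. Capitals mark matches, on either strand, to TGACGTCA, the cyclic AMP response element, to TAAT, the core of homeodomain sites, or to CANNTG, the E-box. The windows lie at chr16:23890845-23890964 for Sst, chr19:37434721-37434840 for Hhex, chr19:38125322-38125441 and chr19:38124812-38124931 for Rbp4, and chr3:27371231-27371350 for Ghsr.
Sst: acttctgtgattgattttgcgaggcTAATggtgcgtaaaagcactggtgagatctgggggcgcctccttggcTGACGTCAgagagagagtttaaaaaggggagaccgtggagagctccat
Hhex: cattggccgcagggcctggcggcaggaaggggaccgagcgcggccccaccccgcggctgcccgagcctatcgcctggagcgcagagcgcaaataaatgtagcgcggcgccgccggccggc
Rbp4, first start: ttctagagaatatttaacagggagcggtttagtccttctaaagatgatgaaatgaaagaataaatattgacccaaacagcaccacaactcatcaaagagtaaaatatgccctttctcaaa
Rbp4, other start: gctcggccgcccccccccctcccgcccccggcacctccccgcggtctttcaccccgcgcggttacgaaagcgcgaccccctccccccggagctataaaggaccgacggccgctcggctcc
Ghsr: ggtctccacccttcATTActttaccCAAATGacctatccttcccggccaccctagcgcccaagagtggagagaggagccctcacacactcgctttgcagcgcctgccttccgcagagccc

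The cyclic AMP response element of Sst, a textbook site for the factor CREB, began 48 bases before the start. Over windows from 250 bases before to 50 after a start, 1.79% of 32851 promoters held this motif on either strand, and of the 6 members it was found in Sst alone. TAAT was found in 58.0% of the promoters and CANNTG in 72.3%, so their presence in a window carries little information. Hhex and Ppy held none of the 3 motifs, and base composition differed as well, with 76.0% G and C in the 250 bases before the start of Hhex against 47.2% for Sst. None of the 3 motifs was found in every delta cell gene of the set, and a link between motifs and levels was not tested. No match says only that these letters are absent from the window.

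The sign of the difference was the same as reported in all 22 alternative settings for Sst (-0.83 to -0.31), Hhex (-0.69 to -0.36), Rbp4 (-0.85 to -0.37) and Pyy (-0.56 to -0.038). It was the same in 21 of 22 for Ghsr and in 17 of 22 for Ppy. Settings that change only the filter, the probe choice, the eBayes step or the block return the reported difference, so their sign was fixed. For Sst, Hhex and Rbp4, whose diets do not overlap, leaving out a sample or taking 1 slide cannot turn the sign either. The lowest values of Sst, Rbp4, Ppy and Pyy and the highest of Ghsr came from the normexp background correction, under which the median of all probes was 0.19, against -0.013 as reported. High-fat replicate 2 has 7 spots with a background over 4 times the array's median, and without such spots the median under normexp was 0.024. In the authors' deposited value table the differences were -0.52 for Sst, -0.36 for Hhex, -0.53 for Rbp4, -0.018 for Ppy and -0.20 for Pyy, and none passed there.

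**Figure D5:**
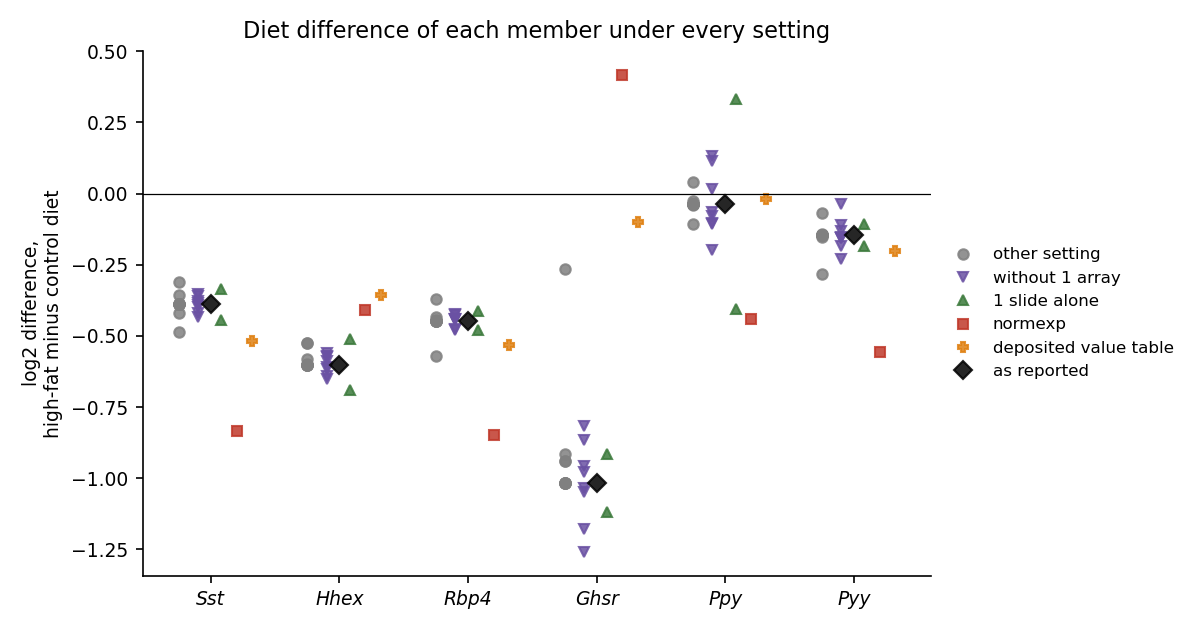
Log2 difference, high-fat minus control diet, of each member as reported (black) and under the 22 alternative settings, by kind of setting. All points lie below 0 for Sst, Hhex, Rbp4 and Pyy, 1 point lies above 0 for Ghsr (normexp background correction), and 5 lie above 0 for Ppy. Settings that change only the filter, the probe choice, the eBayes step or the block have the reported value.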

How the data were processed

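The deposited scanner files hold, per the file headers, Agilent Feature Extraction 11.5.1.1 output with intensity values per spot, and the processed signal is already background-subtracted and detrended. The submitters' processing notes also name limma, without a version. The deposited value table holds log2 values whose scale and centring are not stated. Its 28061 probes were matched by probe name to the scanner files (Spearman correlation from 0.997 to 0.999 per array), and its column medians ranged from 8.68 to 8.69. Slides and positions are those of the scanner headers.

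Control spots and spots marked as outliers (125 to 228 per array) were left out, log2 of the processed signal was taken, the 75th percentile of the array (333.6 to 710.8 intensity units) was subtracted and replicate spots were averaged by probe. The filter on dim probes asked for signal well above background in 4 or more of the 8 samples and left 26076 probes, each fitted by diet in limma 3.58.1 (R 4.3.3, lmFit and eBayes) with Benjamini-Hochberg adjustment over all of them and a threshold of 0.05. The median SE of a difference was 0.17. In lists, each gene was represented by its brightest probe. Ratios were tested by exact permutation over 70 splits. Alternatives covered scaling, background, filter, probe choice, eBayes, array weights, slide, replicate number and leaving out each sample. The fit was tested on simulated data. The labels call the samples biological replicates. The members and lists were chosen with earlier results of these data known. By the rule for naming genes, all members were named, and up to 4 genes per list by unadjusted p, with ligands and receptors of members and the 5 genes most like Sst and Ppy. A few genes chosen in this way are left out of the text.

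Same-numbered samples of the diets correlated in their deviations from the diet means at 0.24, 0.39, -0.024 and 0.30 for numbers 1 to 4. They were not treated as pairs.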

Additional observations from a re-analysis of the deposited data

How the results depend on the processing

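Across all probes, limma called 0 under 21 of the 22 alternatives, at an unadjusted p under 0.05 for 1508 probes as reported, and a trended and robust eBayes called 1, which is no member. Probes at an unadjusted p under 0.05 numbered 164 with normexp background correction and 893 with normexp without spots of outlying background. They numbered 2642 with array weights and 2419 with the replicate block. Scaling to the median made 912 higher and 492 lower, against 607 higher and 901 lower as reported. With the replicate block, which gives the same differences, the adjusted p was 0.487 for Sst, 0.469 for Hhex, 0.477 for Rbp4, 0.405 for Ghsr, 0.975 for Ppy and 0.760 for Pyy, and it changed no call. The ratio of Sst to Ins2 was -0.77 on slide 1 and -0.098 on slide 2, and that to Gcg -0.43 and -0.014. Leaving out each sample gave -0.56 to -0.32 and -0.33 to -0.12 for these ratios.

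Normexp background correction turned the sign of Ghsr (0.42), Ffar4 (0.12), Crhr2 (0.16), Sstr1 (0.33), Sstr3 (-0.23) and Ins2 (-0.37). Ppy was 0.040 with median scaling, 0.33 on slide 2, and -0.20 to 0.13 when each sample was left out. Crhr2 was 0.013 with median scaling and -0.20 to 0.029 when each sample was left out. Ins2 was -0.0095 with quantile normalization, -0.35 on slide 2 and -0.065 to 0.14 when each sample was left out, and Gcg was 0.099 on slide 1. The causes were not tested. The number of arrays limits the precision, and the dim signals of Ghsr, Ffar4 and Sstr1 depend on the background method.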

Other observations

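Among genes that handle retinol, the cargo of Rbp4, the intracellular retinol-binding protein gene Rbp7 was the 1 of 7 measured at an unadjusted p under 0.05. It was at 1.92, 2.09, 1.51 and 2.00 in high-fat replicates 1 to 4, against 1.21, 1.20, 1.26 and 1.15 in control replicates 1 to 4, and the diets did not overlap. The log2 difference was 0.68 ± 0.14 (SE, limma adjusted p = 0.423), opposite in sign to that of Rbp4, and it was 0.25 with normexp background correction. All 8 genes of prohormone processing and granule proteins lay above 0, with a median difference of 0.15, and 0 of them reached an unadjusted p under 0.05. Over all probes tested, 52.5% lay below 0. Pcsk2, Chgb and Scg5 were above 0 on both slides. Chga (-0.24), Cpe (-0.0063) and Pcsk1n (-0.015) were below 0 on slide 2, and Pcsk1 (-0.063) and Pam (-0.20) on slide 1.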
